A study of Saccharomyces cerevisiae with 9 samples.

Results

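Ribonucleotide reductase makes the deoxyribonucleotides (dNTPs) from which DNA is copied. The 10 genes described here are those of the enzyme, its inhibitor, the dUTPase and the checkpoint that controls them in the budding yeast Saccharomyces cerevisiae. They were RNR1, RNR2, RNR3, RNR4, SML1, DUN1, RFX1, RAD53, MEC1 and DUT1, each taken by its systematic name from the 6947 probes of the array, where each had 1 probe. All 10 had a value on all 9 arrays and passed the filter on missing values. Each array compared RNA of an evolved strain (Cy5) with RNA of its ancestor (Cy3) in a 2-colour hybridisation. On 6 arrays the evolved strain was the mutator line m8 after 6700 generations, set against its mutator ancestor. On 3 arrays it was a non-mutator after 6700 generations, set against its own non-mutator ancestor. All cultures, evolved and ancestral, grew in rich medium (YPD) in 3 ml to an OD600 of about 0.3. The sources used here do not name the allele that makes the ancestor a mutator. Each group stands for 1 evolved strain.

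The 6 mutator arrays were a first round of 3 and a repeat round of 3 with the same evolved RNA numbers, and each evolved RNA counts once, as the mean of its pair of arrays (n = 3). The labels do not state whether replicates came from separate cultures. All p-values therefore rest on spread among these RNA samples, and that spread may be only technical. A ratio above 1, or a log2 ratio above 0, is read as higher in the evolved strain, which is the likely direction by the dye labels. Ratios are given as deposited, and log2 ratios after centring on the median of each array, a shift of 0.10 on average for the mutator and 0.01 for the non-mutator. Pearson's r across probes ran between 0.749 and 0.949 for pairs of mutator arrays and between 0.729 and 0.881 for pairs of non-mutator arrays. Log2 ratios of all probes spread more widely in the mutator (SD 0.85 to 1.0 per array) than in the non-mutator (0.28 to 0.30). Precision is limited by how few arrays there are, and ratios give changes from the ancestor, not levels, so subunits cannot be compared for abundance.

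As background, the yeast enzyme has a large subunit, Rnr1, which binds substrates and effectors, and a small subunit formed by Rnr2 with Rnr4, which carries the iron cofactor. Rnr3 is a second form of the large subunit, made mainly after DNA damage. When DNA is damaged or replication stalls, the kinase Mec1 activates Rad53, which activates Dun1. Dun1 then marks the inhibitor Sml1 for destruction and lifts the repression that Rfx1 (Crt1) exerts on RNR2, RNR3 and RNR4. RNR1 is instead switched on mainly in late G1 with the genes of DNA synthesis.

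In the mutator line RNR1 rose 3.22-fold over its ancestor, while the other 3 reductase genes fell. RNR3 fell 2.15-fold, RNR4 1.38-fold and RNR2 1.37-fold. SML1, DUT1, MEC1, RAD53 and DUN1 rose and RFX1 fell, by between 1.18-fold and 1.62-fold. Thus 6 of the 10 genes rose and 4 fell at an adjusted p under 0.05 in limma, where 75.1% of all 6866 probes tested passed. By direction, 37.3% of probes passed as higher and 37.8% as lower, so a pass is common on these arrays and the sizes say more than the count. The 10 genes had a median log2 ratio of 0.31, against 0.02 over all probes tested. At a size of at least 2-fold, only RNR1 and RNR3 of the 10 were left. With arrays scaled to an equal spread, 5 of the 10 genes and 3605 of all probes passed in the mutator. SML1, MEC1, RAD53, DUN1 and RFX1 then lost their call (limma, adjusted p between 0.055 and 0.10). All 10 kept their sign on all 6 mutator arrays after centring, as 63.3% of probes with 6 values did.

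**Figure D1:**
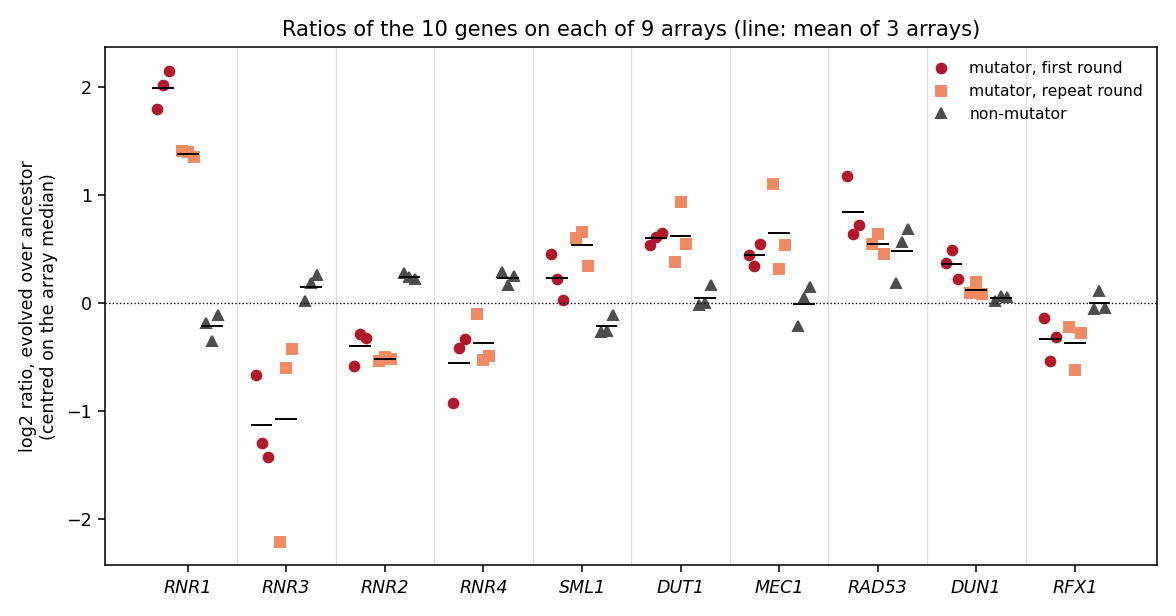
Log2 ratios, evolved over ancestor (vertical axis, centred on the array median) for the 10 genes on each of the 9 arrays: circles, first mutator round; squares, repeat mutator round; triangles, non-mutator. Short lines are means of 3 arrays; RNR1 stands highest on every mutator array, and RNR3 shows the widest scatter, with 1 repeat array at -2.21.

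RNR1 (YER070W), the large subunit gene, had deposited ratios of 3.77, 4.35 and 4.70 on first-round mutator arrays 1, 2 and 3. Its repeat arrays gave 2.84, 2.86 and 2.72. The non-mutator arrays 2, 3 and 4 gave 0.889, 0.791 and 0.929. Every mutator value lay above every non-mutator value, and every first-round value above every repeat value. On the log2 scale RNR1 averaged 1.69 ± 0.08 in the mutator and -0.21 ± 0.12 in the non-mutator (SD, n = 3 each). The mutator rise passed limma's test (adjusted p = 2.1e-06) and placed RNR1 91st from the top of the 6866 probes. The first round averaged 1.99 ± 0.18 and the repeat 1.38 ± 0.03 (SD over 3 arrays), so its size differed between rounds while its direction did not. The non-mutator value did not pass (adjusted p = 0.052). The difference between the lines was 1.90 ± 0.09 (SE), which passed (adjusted p = 1.1e-05) and ranked 42nd from the top.

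RNR3 (YIL066C), the damage-inducible large subunit gene, had mutator ratios of 0.682, 0.438 and 0.394 in the first round, with repeat values of 0.232, 0.720 and 0.794. In the non-mutator it had 1.02, 1.14 and 1.198. All mutator values lay below all non-mutator values, but the mutator arrays ranged more than 3-fold among themselves. Repeat array 1 was lowest at -2.21 on the log2 scale, with repeat arrays 2 and 3 at -0.60 and -0.42. RNR3 averaged -1.10 ± 0.29 in the mutator and 0.15 ± 0.12 in the non-mutator (SD, n = 3 each). Over the 6 mutator arrays taken singly the SD was 0.67, since averaging the rounds evens out much of the scatter. The mutator decrease passed (limma, adjusted p = 0.00016), and the non-mutator value did not (adjusted p = 0.38). The difference of -1.26 ± 0.16 (SE) passed with both rounds (adjusted p = 0.0006) but not with the repeat round alone (-1.23, adjusted p = 0.066).

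RNR1 and RNR3 encode closely related proteins, as do RNR2 and RNR4, so probes of a pair could in principle read both transcripts. The paralogues RNR1 and RNR3 had ratios on opposite sides of 1 on every array, though neither passed limma's test in the non-mutator. RNR2 and RNR4 had close means in both lines. Probe sequences were not used here, and whether probes read both transcripts of a pair was not tested.

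RNR2 (YJL026W), the small subunit gene that holds the iron ligands, had mutator ratios of 0.724, 0.883 and 0.849 in the first round, with repeat values of 0.741, 0.772 and 0.744. Non-mutator ratios were 1.23, 1.19 and 1.17. The groups did not overlap and lay on opposite sides of 1. RNR2 averaged -0.45 ± 0.09 in the mutator and 0.25 ± 0.03 in the non-mutator (SD, n = 3 each). Both passed limma's test, as a decrease in the mutator (adjusted p = 0.00022) and an increase in the non-mutator (adjusted p = 0.018). The difference of -0.70 ± 0.07 (SE) passed too (adjusted p = 0.00021).

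RNR4 (YGR180C), whose product is needed to assemble the cofactor site of Rnr2, had mutator ratios of 0.569, 0.805 and 0.842 in the first round. The repeat gave 1.004, 0.757 and 0.758. Its non-mutator ratios were 1.24, 1.13 and 1.195. First-round array 1 was lowest and repeat array 1 highest, at about no change before centring. The other mutator arrays lay between them, and all 6 were below all non-mutator arrays. RNR4 averaged -0.46 ± 0.05 in the mutator and 0.24 ± 0.06 in the non-mutator (SD, n = 3 each). The values are close to those of RNR2. The mutator decrease (limma, adjusted p = 0.00016), the non-mutator increase (adjusted p = 0.017) and the difference of -0.70 ± 0.07 (SE, adjusted p = 0.000175) all passed.

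Set against each other within an array, the subunit genes separated the lines on all 9 arrays. RNR1 exceeded RNR2 by 1.87 to 2.47 log2 units on mutator arrays, and lay below it by -0.33 to -0.59 on non-mutator arrays. The mean of this difference was 2.14 ± 0.04 in the mutator and -0.46 ± 0.13 in the non-mutator (SD, n = 3 each). RNR1 minus RNR4 was 2.15 ± 0.03 in the mutator and -0.45 ± 0.08 in the non-mutator. RNR1 minus RNR3 spread more widely, at 2.79 ± 0.22 in the mutator and -0.37 ± 0.16 in the non-mutator, with single mutator arrays from 1.77 to 3.61. The partners RNR2 and RNR4 stood close together, and their difference averaged 0.01 ± 0.06 in the mutator and 0.01 ± 0.06 in the non-mutator. On single mutator arrays, however, it ran between -0.44 and 0.35. These are descriptions without a test, because the genes were chosen with earlier results known. They do not depend on how an array is centred.

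**Figure D2:**
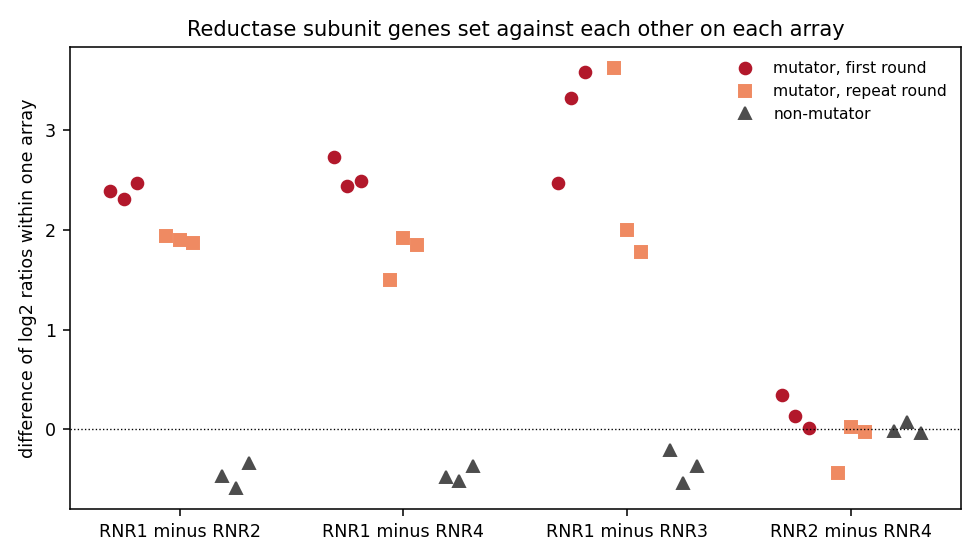
Differences of log2 ratios between 2 reductase genes on the same array (vertical axis) for 4 gene pairs: circles, first mutator round; squares, repeat mutator round; triangles, non-mutator. The 3 differences that start from RNR1 are above 0 on every mutator array and below 0 on every non-mutator array, while RNR2 minus RNR4 is scattered about 0 in both lines.

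SML1 (YML058W) encodes the small protein that binds and inhibits the large subunit. Its mutator ratios were 1.48, 1.25 and 1.08 in the first round, with repeat values of 1.63, 1.71 and 1.35. In the non-mutator they were 0.844, 0.842 and 0.930. The groups did not overlap, although first-round array 3 was only just above its array's median, at 0.03 on the log2 scale. SML1 averaged 0.38 ± 0.18 in the mutator and -0.21 ± 0.09 in the non-mutator (SD, n = 3 each). The mutator rounds averaged 0.23 (first) and 0.53 (repeat), and the first alone passed narrowly (limma, adjusted p = 0.048). The mutator increase over both rounds passed (limma, adjusted p = 0.0037), as did the difference of 0.59 ± 0.11 (SE, adjusted p = 0.0032). The non-mutator value did not pass (adjusted p = 0.11). SML1 averaged higher in the repeat round, though its rounds overlapped, whereas RNR1 was higher in the first without overlap. RNR1 minus SML1 was 0.74 to 2.12 log2 units on mutator arrays, against -0.09 to 0.08 on non-mutator arrays.

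DUT1 (YBR252W) encodes dUTPase, which removes dUTP before it can enter DNA and supplies dUMP for thymidylate synthesis. Mutator ratios were 1.57, 1.64 and 1.67 in the first round, with repeat values of 1.40, 2.08 and 1.55, against 0.998, 1.0 and 1.12 in the non-mutator. The groups did not overlap, and repeat array 2 was the highest. DUT1 averaged 0.61 ± 0.16 in the mutator and 0.05 ± 0.10 in the non-mutator (SD, n = 3 each). The increase in the mutator passed (limma, adjusted p = 0.00034) and so did the difference of 0.56 ± 0.10 (SE, adjusted p = 0.0032). For the non-mutator the adjusted p was 0.73. With arrays scaled to an equal spread the difference did not pass (0.29, adjusted p = 0.13).

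Of the checkpoint kinase genes, MEC1 (YBR136W) encodes the sensor kinase at the top of the cascade. It had mutator ratios of 1.48, 1.36 and 1.55 in the first round, with repeat values of 2.30, 1.36 and 1.54. The non-mutator arrays gave 0.873, 1.04 and 1.11. Repeat array 1 stood well above the other mutator arrays, which were close together and above all non-mutator arrays. MEC1 averaged 0.55 ± 0.22 in the mutator and -0.01 ± 0.19 in the non-mutator (SD, n = 3 each). The mutator increase passed (limma, adjusted p = 0.0029), as did the difference of 0.56 ± 0.15 (SE, adjusted p = 0.015). Without replicate 1, which holds the high array, the mutator mean was 0.44 and still passed. With arrays scaled to an equal spread the difference did not pass (0.39, adjusted p = 0.20).

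RAD53 (YPL153C), the effector kinase gene, was the only 1 of the 10 that passed as higher in both lines. Mutator ratios were 2.44, 1.67 and 1.75 in the first round, with repeat values of 1.56, 1.69 and 1.46. Non-mutator ratios were 1.16, 1.49 and 1.61. The groups overlapped, with the upper non-mutator arrays inside the mutator range. RAD53 averaged 0.70 ± 0.14 in the mutator and 0.48 ± 0.26 in the non-mutator (SD, n = 3 each), and both passed (limma, adjusted p = 0.0011 and 0.025). In the non-mutator it ranked 189th from the top of 6866 probes, but 8 of 21 alternatives lost that call. The mutator call was lost in 2 of 21, among them arrays scaled to an equal spread. The difference of 0.21 had a 95% confidence interval of -0.15 to 0.57 and did not pass (adjusted p = 0.25), which does not show that the lines changed alike.

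DUN1 (YDL101C) encodes the kinase that acts on Sml1 and Rfx1. It had mutator ratios of 1.40, 1.51 and 1.24 in the first round, with repeat values of 1.15, 1.25 and 1.13, against 1.02, 1.05 and 1.04 in the non-mutator. The mutator arrays all lay above the non-mutator arrays, but only by a little in the repeat round, whose array 3 was the lowest. DUN1 averaged 0.24 ± 0.10 in the mutator and 0.05 ± 0.03 in the non-mutator (SD, n = 3 each). The mutator increase passed (limma, adjusted p = 0.0043), at 0.36 (first round) and 0.13 (repeat), and did not pass on the repeat round alone (adjusted p = 0.061). The difference of 0.20 ± 0.07 (SE) passed narrowly (adjusted p = 0.047), and 13 of 20 alternatives lost that call, among them the round as a random block (adjusted p = 0.16). It was also lost without any 1 of the 3 non-mutator replicates (0.18 to 0.21), without mutator replicate 1 (0.20) or without mutator replicate 2 (0.15).

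RFX1 (YLR176C) encodes the repressor of RNR2, RNR3 and RNR4, which also represses its own gene. Its mutator ratios were 0.986, 0.740 and 0.853 in the first round, with repeat values of 0.922, 0.709 and 0.877. Non-mutator ratios were 0.974, 1.08 and 0.974. First-round array 1 came close to no change, and replicate 2 gave the lowest value in both rounds. RFX1 averaged -0.35 ± 0.21 in the mutator and 0.01 ± 0.09 in the non-mutator (SD, n = 3 each). The mutator decrease passed (limma, adjusted p = 0.0086). The difference of -0.35 ± 0.12 (SE, adjusted p = 0.037) passed, but 10 of 20 alternatives lost it, among them no centring (-0.26, adjusted p = 0.087). It was also lost without any 1 of the 3 non-mutator replicates (-0.30 to -0.38), and without mutator replicate 2 (-0.24) or 3 (-0.38).

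**Figure D3:**
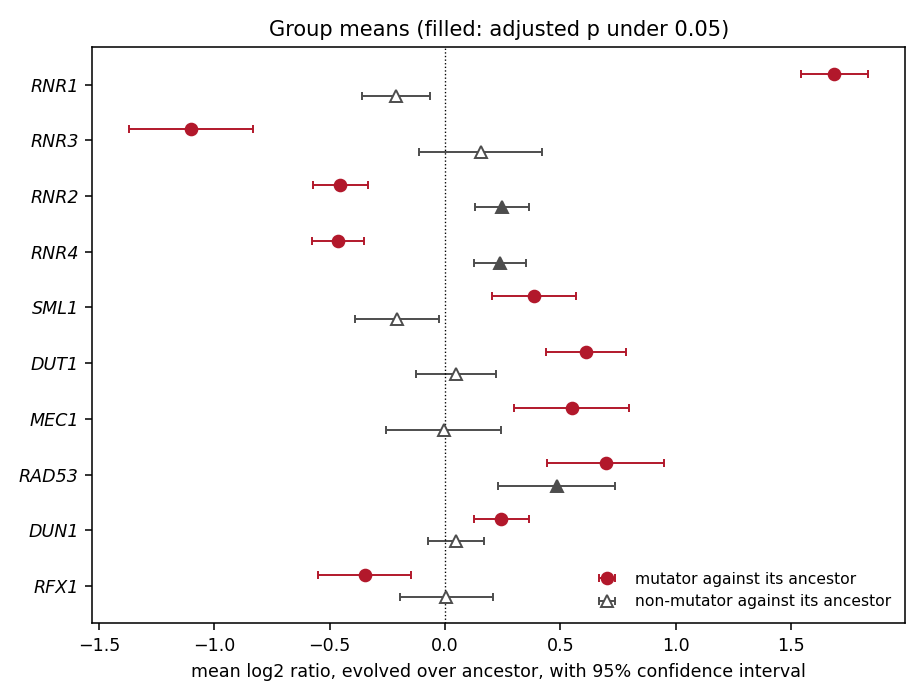
Mean log2 ratio of evolved strain over ancestor with its 95% confidence interval from limma (horizontal axis) for the 10 genes (vertical axis): circles, mutator; triangles, non-mutator; filled symbols passed at an adjusted p under 0.05 and open ones did not. All 10 mutator means passed; in the non-mutator only RNR2, RNR4 and RAD53 did.

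Across the non-mutator, 3 of the 10 genes passed, RNR2, RNR4 and RAD53, all higher, and 0 passed as lower in limma. Of all probes 21.2% passed, 10.2% as higher and 11.1% as lower, and 5 of the 10 genes had an unadjusted p under 0.05. RNR2 and RNR4 lost their call without any 1 of the 3 non-mutator replicates (0.23 to 0.26 for RNR2 and 0.21 to 0.27 for RNR4), and RAD53 without replicate 3 or 4 (0.44 and 0.38). The difference between the lines passed for 9 of the 10 genes, 5 higher and 4 lower in the mutator, against 63.9% of all probes (33.0% higher and 30.9% lower). After centring, the groups of 6 and 3 arrays did not overlap for 9 of the 10 genes, and for 56.6% of probes with all values. On the deposited ratios RFX1 overlapped as well, with first-round mutator array 1 (0.986) above non-mutator arrays 2 and 4 (0.974 each). The mutator rounds, also after centring, did not overlap for 3 genes (RNR1, RAD53 and DUN1, each higher in the first round), and for 30.7% of probes. On the deposited ratios the rounds of RAD53 and DUN1 overlapped slightly. Ordered by the difference between the lines, RNR1 stood alone at the top and RNR3 at the bottom. Between them came SML1, DUT1 and MEC1 at 0.59, 0.56 and 0.56, RAD53 and DUN1 at 0.21 and 0.20, RFX1 at -0.35, and RNR4 and RNR2 at -0.70 each. Neighbours within each of these sets differed by less than their SE.

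HUG1 (YML058W-A), the neighbour of SML1 in the reference gene order, is a small damage-induced gene that Rfx1 represses. Its mutator ratios were 0.637, 0.875 and 0.529 in the first round, with repeat values of 0.538, 0.883 and 0.467, against 1.03, 1.24 and 1.04 in the non-mutator. All mutator arrays lay below all non-mutator arrays, and replicate 2 was the least changed in both rounds. HUG1 averaged -0.76 ± 0.41 in the mutator and 0.13 ± 0.16 in the non-mutator (SD, n = 3 each), and passed in the mutator (limma, adjusted p = 0.0038) and in the difference (-0.89, adjusted p = 0.011).

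Of 8 other regulators of the reductase, HUG1 included, 5 rose and 3 fell in the mutator (median 0.28). Here and in the lists below, counts are of genes that passed limma. Of all probes, 37.3% passed as higher and 37.8% as lower in the mutator. WTM1, whose product anchors the small subunit in the nucleus, fell to -1.62 ± 0.18 in the mutator, against 0.18 ± 0.05 in the non-mutator (SD, n = 3 each). Its paralogue WTM2 rose by 0.62 ± 0.12 in the mutator, against -0.15 ± 0.06 in the non-mutator. The mutator rounds of WTM2 averaged 0.84 (first) and 0.40 (repeat). IXR1, which encodes a DNA-binding protein needed for normal RNR1 expression, rose in both, by 0.66 ± 0.15 in the mutator and 0.32 ± 0.08 in the non-mutator. The difference between the lines was highest for WTM2 (0.77), followed by the corepressor gene TUP1 (0.46). In the non-mutator IXR1 rose and CRT10, described as a negative regulator of reductase genes, fell to -0.29 ± 0.03, with a median of 0.13 for the list. CRT10 fell in the mutator too (-0.23, limma, adjusted p = 0.0053), and its difference between the lines did not pass (adjusted p = 0.45). The difference passed as higher for 4 genes and lower for 2, and for 2 and 2 with the round as a random block. For all probes it passed as higher for 33.0% and lower for 30.9%, and with that block for 1722 and 1715 of 6883.

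All 4 genes for assembly of the iron cofactor rose in the mutator (median 1.04), and 0 passed in the non-mutator (median -0.03), where 0 of 4 had an unadjusted p under 0.05 in limma. Of all probes, 37.3% passed as higher in the mutator and 21.2% in either direction in the non-mutator. TAH18 and DRE2, which form an electron transfer pair, rose by 1.16 ± 0.05 and 1.15 ± 0.03 in the mutator, against 0.03 ± 0.08 and -0.11 ± 0.14 in the non-mutator (SD, n = 3 each). Their single mutator arrays ran from 0.89 to 1.54 (TAH18) and from 0.77 to 1.51 (DRE2). The glutaredoxin gene GRX4 rose by 0.93 ± 0.12, but its rounds averaged 1.68 (first) and 0.18 (repeat). Its paralogue GRX3 rose by 0.19 ± 0.14. With the repeat round alone, 2 of the 4 genes passed as higher in the mutator, against 2278 of 6670 probes. The difference between the lines passed as higher for 3 of the 4 genes (33.0% of all probes), and not for GRX3 (0.13, limma, adjusted p = 0.24). With the round as a random block it passed as higher for 2 of the 4, against 1722 of 6883 probes.

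Other dNTP synthesis genes did not share 1 direction: of 10, 2 rose and 4 fell in the mutator (median -0.0023). Of all probes, 37.3% rose and 37.8% fell by the same test. DCD1, which encodes deoxycytidylate deaminase, rose by 0.73 ± 0.13 in the mutator and stood at 0.21 ± 0.08 in the non-mutator (SD, n = 3 each). The thymidylate synthase gene CDC21 rose by 0.65 ± 0.01 in the mutator, against 0.02 ± 0.03 in the non-mutator. Single mutator arrays of CDC21 ran from 0.51 to 0.79. YNK1, the nucleoside diphosphate kinase gene, fell to -1.15 ± 0.24 in the mutator, against 0.04 ± 0.05 in the non-mutator, and the thioredoxin gene TRX2 to -0.93 ± 0.20, against 0.10 ± 0.06. The dihydrofolate reductase gene DFR1 moved in opposite directions, falling to -0.50 ± 0.09 in the mutator and rising by 0.61 ± 0.08 in the non-mutator (difference -1.11, limma, adjusted p = 5.0e-05). In the non-mutator the adenylate kinase gene ADK1 (-0.27) and the thioredoxin reductase gene TRR1 (-0.38) fell. TRR1 fell in the mutator too (-0.20, limma, adjusted p = 0.0087), and its difference between the lines did not pass (adjusted p = 0.053).

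Of 14 other checkpoint genes, 11 rose and 2 fell in the mutator (median 0.44), the same counts as in the difference between the lines. For all probes the shares were 37.3% and 37.8% in the mutator, and 33.0% and 30.9% in the difference. The fork protection gene TOF1 rose by 1.10 ± 0.04 in the mutator, against 0.04 ± 0.14 in the non-mutator (SD, n = 3 each). Single mutator arrays of TOF1 ran from 0.83 to 1.36. ASF1, which encodes a histone chaperone bound by Rad53, rose in both, by 0.72 ± 0.24 in the mutator and 0.33 ± 0.02 in the non-mutator. The kinase gene CHK1 fell to -0.90 ± 0.24 in the mutator and stood at -0.20 ± 0.11 in the non-mutator. RAD17, a gene of the checkpoint clamp, fell to -0.27 ± 0.02 in the mutator, against 0.17 ± 0.08 in the non-mutator. Its single mutator arrays ran from -0.55 to 0.04, and its rounds averaged -0.38 (first) and -0.16 (repeat). The scaffold gene DPB11 fell to -0.26 ± 0.04 in the non-mutator and rose by 0.44 ± 0.11 in the mutator, where its rounds averaged 0.81 (first) and 0.06 (repeat). With the round as a random block 7 checkpoint genes passed as higher and 2 as lower in the difference, against 1722 and 1715 of 6883 probes.

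Genes that mark stages of the cell cycle moved in the mutator as well. As background, the RNR1 transcript peaks in late G1, but no link between these lists and RNR1 was tested. Of 17 genes of G1 and S phase, 13 rose and 1 fell in the mutator (median 0.65), and 0 passed limma in the non-mutator (median 0.02), where 1 had an unadjusted p under 0.05. Among all probes, 37.3% passed as higher and 37.8% as lower in the mutator, and 21.2% in either direction in the non-mutator. The S phase cyclin gene CLB6 rose by 1.53 ± 0.06 and the replication licensing gene CDC6 by 1.24 ± 0.11 in the mutator, against -0.01 ± 0.13 and -0.11 ± 0.04 in the non-mutator (SD, n = 3 each). RNR1, at 1.69 ± 0.08, was above all 17 in the mean of both rounds, but in the first round CLB6 was above it (2.05 against 1.99). At the other end RFA1, of the single-strand DNA binding complex, rose by 0.26 ± 0.02 and the flap endonuclease gene RAD27 fell to -0.52 ± 0.14. Like RNR1, CLB6 and CDC6 were higher in the first round (2.05 and 1.58) than in the repeat (1.0 and 0.90).

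Of 8 genes of G2 and M phase, 7 rose and 1 fell in the mutator (median 0.64), led by the polo kinase gene CDC5 (1.30 ± 0.05) and the cyclin gene CLB2 (1.18 ± 0.19; SD, n = 3 each). The rounds of CDC5 averaged 1.69 (first) and 0.91 (repeat). The spindle midzone gene ASE1 was named by its difference (0.53), with 0.60 ± 0.06 in the mutator and 0.08 ± 0.04 in the non-mutator. The rise of the cyclin gene CLB1 (0.26 ± 0.06) hid opposite rounds, at 0.88 in the first and -0.36 in the repeat. In the non-mutator CLB1 was at -0.40 ± 0.03, which passed as lower, and CDC20 rose by 0.19 ± 0.05. Of 7 genes expressed from M to G1, 2 rose and 4 fell in the mutator (median -0.21). Beside both lists, the shares of all probes in the mutator were 37.3% (higher) and 37.8% (lower). The chitinase gene CTS1 fell to -2.02 ± 0.15 and DSE1 to -1.22 ± 0.16, while PCL9 and ASH1 rose by 0.63 ± 0.04 and 0.52 ± 0.25. In the non-mutator 1 of these 7 rose and 3 fell (median -0.19), with CTS1 at -0.31 ± 0.06, DSE1 at -0.51 ± 0.07 and EGT2 at -0.38 ± 0.08 lower. Of all probes, 10.2% rose and 11.1% fell there. The part of the cell cycle stage mix in the rise of RNR1 was not tested.

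**Figure D4:**
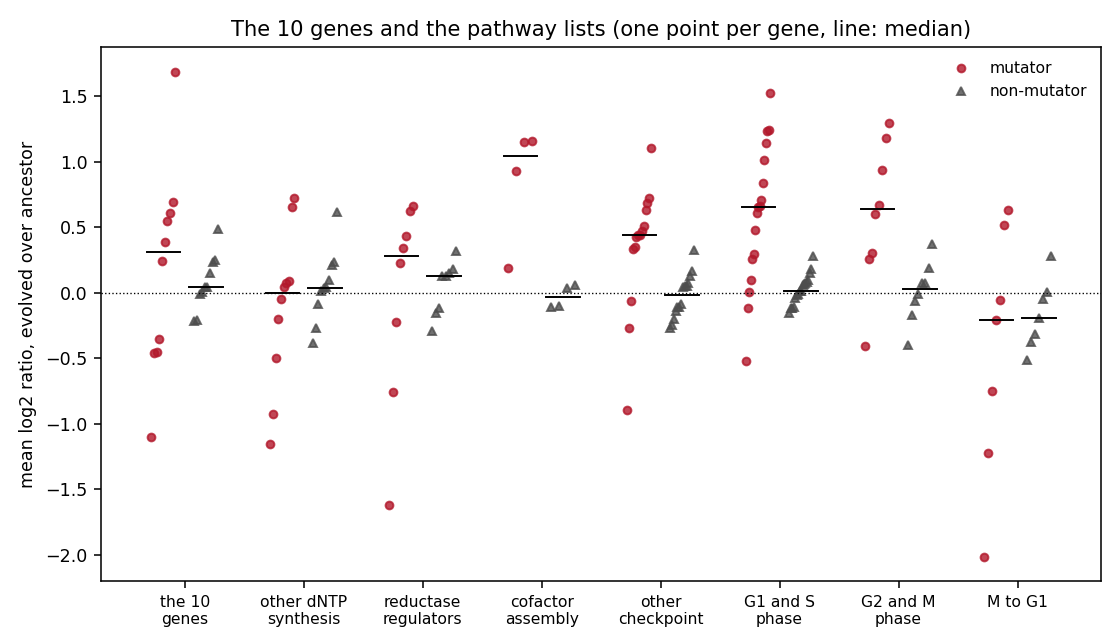
Mean log2 ratio of evolved strain over ancestor (vertical axis) for the 10 genes and for 7 lists of related genes, 1 point per gene: circles, mutator; triangles, non-mutator; lines, medians. The median mutator ratio is highest for cofactor assembly (1.04), near 0 for other dNTP synthesis, and 0.65 for G1 and S phase, a list in which no gene reaches RNR1 in this mean of both rounds, although CLB6 did in the first (2.05 against 1.99).

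Over the 9 arrays, the patterns most like that of each reductase gene were sought among 5470 named probes with all values, by the root mean square difference of log2 ratios. RNR1 was closest to TAT1 (0.16), RRP14 (0.21) and TYW1 (0.21). RNR2 was closest to SRV2 (0.07), CUE5 (0.07) and MSW1 (0.08), and RNR4 to AIP1 (0.13), ARC40 (0.14) and ISN1 (0.14). RNR3 had no comparably close match, the nearest being PHO23 (0.31), DON1 (0.33) and MTQ1 (0.33). This measure is not scaled to a gene's scatter, so a scattered gene tends to have no close match. The SD over 6 mutator arrays was 0.67 for RNR3, against 0.35 for RNR1, 0.27 for RNR4 and 0.12 for RNR2. No reductase gene was among the nearest 3 of another.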

How the data were processed

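Total RNA (Qiagen RNeasy) was compared on 2-colour arrays, 6 mutator and 3 non-mutator. The deposited values are linear ratios; evolved strain in Cy5 and ancestor in Cy3 are per the labels. The sources used here name neither software nor background correction, scaling or spot brightness, and no dyes were swapped. Of 6947 probes, 6377 bore a systematic name and 5840 matched the R64 gene table, used for names and neighbours only. The 10 genes were found by the full systematic name in the probe ID, since the name of SML1 also begins that of HUG1.

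Ratios at 0.01 (tolerance 1e-04) were set to missing, which touched none of the 10 genes. Log2 ratios were centred on each array's median, and both arrays of an evolved RNA number averaged. The repeat of number 2 used ancestor RNA number 1. Mutator replicates 1 and 2 thus share an ancestor RNA and are not fully independent, which the p-values and SDs over n = 3 ignore. The averaging cancels differences between rounds, so p-values and SDs over n = 3 leave them out. Both rounds are therefore given for the 10 genes and HUG1, but only for some of the other list genes. Non-mutator replicates carry the numbers 2, 3 and 4 of their titles, although their descriptions give others. Probes with at least 2 values per group (6866, with 81 not tested) were fitted in limma 3.58.1 (R 4.3.3, lmFit and eBayes) with a mean per group. Each mean and their difference were tested two-sided with Benjamini-Hochberg adjustment over all probes, called under 0.05. The fit was tested on simulated data. Confidence intervals are 95%. Figures used matplotlib 3.10.9.

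The 10 genes, the 7 lists and the alternatives were chosen with earlier results of these data known. Of each list, the 2 highest and 2 lowest genes that passed per comparison were named, and the 3 nearest patterns per reductase gene. The values of 1 gene that this rule selects are not reported here. Lists are described by counts and medians with no set test. Alternatives were no centring, scaling of arrays, other uses of the mutator rounds, floor ratios kept, other filters on missing values, other spread models and thresholds, a replicate block, and dropping replicates in turn.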

Additional observations from a re-analysis of the deposited data

Results flagged for a closer look

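The difference between mutator and non-mutator passed limma's test, with the shared spread of both lines, for 9 of the 10 genes. It was 1.90 for RNR1, -1.26 for RNR3, -0.70 for RNR2, -0.70 for RNR4 and 0.59 for SML1 on the log2 scale. For DUT1 it was 0.56, for MEC1 0.56, for DUN1 0.20 and for RFX1 -0.35. For SML1, RNR1, RNR2, RNR3 and RNR4 the means of the lines had opposite signs, as they did for MEC1 and RFX1, whose non-mutator means were close to 0 (-0.0058 and 0.0051).

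Among the 6 mutator arrays, 1 value stood apart for 2 genes, by the gap to its nearest neighbour as a share of the whole range (critical value 0.625). For MEC1 it was repeat array 1, with a gap of 0.708 of the range. For RAD53 it was first-round array 1, with a gap of 0.631. Chance flags about 1 in 20 such groups. Both arrays carry evolved RNA number 1, and RNR4 and RNR3 had their largest decreases on the same arrays (RNR4 at -0.93 on first-round array 1, RNR3 at -2.21 on repeat array 1). Why was not tested.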

How the results depend on the processing

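In the mutator, all 10 genes kept their direction in 21 alternatives and RNR1 and RNR3 their call. The count of 10 became 5 with arrays scaled to 1 median absolute deviation (3605 instead of 5154 of all probes; lost were SML1, MEC1, RAD53, DUN1 and RFX1) and 2 with at least 2-fold (1241 of all probes), and stayed at 10 without any 1 replicate (4823 to 5022 of all probes). For the difference the count of 9 became 5 with scaling (3676 instead of 4390 of all probes; lost were DUT1, MEC1, DUN1 and RFX1) and 2 with at least 2-fold (1328), and 7 to 8 without any 1 replicate (3773 to 4545). With scaling the difference of RAD53 reversed to -0.67, since scaling widens non-mutator ratios. In the non-mutator the 3 calls are unstable. They became 6 with scaling (3455 instead of 1457 of all probes), 6 with array weights (3308) and 5 with each line fitted alone (2481), and in each of these 2 passed as lower, RNR1 and SML1. In limma 0 passed with 6 mutator arrays as replicates (297 of all probes), the round as a random block (293), the first round only (868), adjusted p under 0.01 (504) or at least 2-fold (49), where 2, 2, 3, 5 and 5 of the 10 genes had an unadjusted p under 0.05. The repeat round only gave 741 of all probes. Without any 1 replicate 0 to 4 of the 10 passed (347 to 1875 of all probes). Values near 0 in the non-mutator changed sign: MEC1 with no centring (0.0027) or array weights (0.074) and RFX1 with array weights (-0.0097). Without any 1 replicate MEC1 ran from -0.084 to 0.10, RFX1 from -0.048 to 0.035 and DUT1 from -0.011 to 0.081 there. Other uses of the mutator rounds left the non-mutator means unchanged, since the fit shares only its spread between the lines. RNR2 stayed at 0.25, with limma's adjusted p at 0.119 (6 arrays), 0.124 (random block), 0.070 (first round only) and 0.026 (repeat round only). Why values near 0 changed sign was not tested.

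Mutator and non-mutator share the replicate numbers 2 and 3, whose deviations were not correlated (r = -0.036 and 0.017). With ratios to an ancestor in groups of 3, this cannot show whether the samples share more than a number. With a replicate block on these samples alone, 9 of the 10 genes passed in the mutator (4390 of all probes) and 8 in the difference (3437). In the non-mutator 0 passed (8 of all probes, and 5 of the 10 at an unadjusted p under 0.05), with DUT1 at -0.011.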
